A study of Mus musculus with 6 samples.

Results

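The genes described here are the extracellular metalloproteinases and their inhibitors, taken as the protein-coding genes of the deposited table whose names begin with Adam, Adamts, Adamtsl, Mmp or Timp and a number. There were 83 of them among 54532 genes, namely 33 Adam, 19 Adamts, 5 Adamtsl, 22 Mmp and 4 Timp genes. RNA was sequenced from primary neurospheres, floating colonies grown from neural progenitors, of C57BL/6 mouse embryos at E14.5, after 6 days of culture with EGF and bFGF. The 3 knockout (KO) libraries, numbered 1, 2 and 3, came from mice with a conditional knockout of Ash2l driven by D6-Cre, a transgene active in the dorsal forebrain, and the 3 wild-type (WT) libraries are numbered 3, 6 and 7. Both groups shared the medium and the day of collection. The labels name both dorsal cortex and the lateral walls of the ventricles as the starting tissue. They do not say whether libraries of a group are separate embryos or cultures, so the spread that p-values rest on may be technical.

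Adam and Mmp proteins are zinc proteases that act at the cell surface or outside the cell. Adam proteases mostly release the outer parts of membrane proteins, such as growth factors, Notch and its ligands, and adhesion molecules. Adamts proteases are secreted and bind the matrix, where several of them cut the chondroitin sulfate proteoglycans that fill the space between brain cells, and others trim procollagens. Adamtsl proteins resemble Adamts proteins but lack the protease part. Mmp proteases cut collagens, laminins and many other proteins, some of them while anchored in the membrane, and Timp proteins are the tissue inhibitors that block Mmp and certain Adam and Adamts proteases. ASH2L belongs to the COMPASS complexes that methylate lysine 4 of histone H3, a mark of active promoters, which in mammals mostly lie in stretches rich in CpG.

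The promoters of 3 members on which the results turn are given first, in the 300 bases from 250 before to 50 after the RefSeq start on build GRCm38.p6, 5′ to 3′ on the gene's strand, with each CpG in capitals. Adamts14 is shown as the member with the highest fold change, Timp3 as the inhibitor that fell, and Mmp15 as the member with the highest mean level over the 6 libraries. Their windows hold 44, 24 and 22 CpGs in that order, against a median of 7 over all 32851 RefSeq windows of this length.
Adamts14 (chr10:61273370-61273669, minus strand): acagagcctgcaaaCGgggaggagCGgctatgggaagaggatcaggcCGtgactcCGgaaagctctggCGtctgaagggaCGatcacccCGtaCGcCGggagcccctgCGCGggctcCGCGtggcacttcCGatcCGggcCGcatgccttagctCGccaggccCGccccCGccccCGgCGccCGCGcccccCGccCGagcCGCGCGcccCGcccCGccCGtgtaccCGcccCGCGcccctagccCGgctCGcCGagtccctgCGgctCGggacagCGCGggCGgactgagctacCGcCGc
Timp3 (chr10:86300162-86300461, plus strand): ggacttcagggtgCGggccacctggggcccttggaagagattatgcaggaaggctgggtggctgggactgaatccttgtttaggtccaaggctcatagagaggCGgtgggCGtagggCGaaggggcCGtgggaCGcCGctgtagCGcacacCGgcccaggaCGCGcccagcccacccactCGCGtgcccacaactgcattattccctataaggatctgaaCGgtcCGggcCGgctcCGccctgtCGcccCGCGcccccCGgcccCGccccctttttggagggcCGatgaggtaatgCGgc
Mmp15 (chr8:95352046-95352345, plus strand): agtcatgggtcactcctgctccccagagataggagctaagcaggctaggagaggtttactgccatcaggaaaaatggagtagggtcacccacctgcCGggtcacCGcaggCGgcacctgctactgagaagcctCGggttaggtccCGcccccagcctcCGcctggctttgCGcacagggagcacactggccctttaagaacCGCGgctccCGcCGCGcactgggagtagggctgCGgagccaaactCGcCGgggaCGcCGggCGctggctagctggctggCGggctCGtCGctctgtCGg

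Library totals ran from 16764480 to 21983659 counts, and 3 reads correspond to 0.136 to 0.179 CPM, the count scaled to library size. The members together took 0.200% to 0.218% of the counts in KO libraries and 0.173% to 0.185% in WT libraries. Ash2l itself, counted over the whole gene, averaged 95.9 CPM in KO and 113 CPM in WT, and its log2 fold change of -0.24 (SE 0.10) did not pass (adjusted p = 0.119). On the first principal component, with 69.9% of the variance, WT 3 at 25.5 lay nearer to the KO libraries (-76.8 to -53.5) than WT 6 and WT 7 did (81.7 and 85.7). Values below are the deposited FPKM, which are per length and so allow levels of different genes to be compared, and fold changes and adjusted p-values are from edgeR's quasi-likelihood test on the counts, adjusted over 16606 genes by Benjamini-Hochberg with a threshold of 0.05.

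Of the 83 members, 48 had enough reads to be tested, and the other 35 comprised 11 with no read and 24 with at most 54 reads summed over the 6 libraries. Among the 48, 19 passed (39.6%), where 29% of all tested genes did. In KO spheres 10 members rose, where 13.5% of all genes did, and 9 fell, where 15.5% did. The median log2 fold change was 0.34 over the tested members and 0.00 over all tested genes. KO and WT libraries were free of overlap in 25 of the 48 members (52.1%) and in 48.6% of all tested genes. Of the 19 calls, 8 held whichever library was left out and under each other setting tried, namely Adam12, Adam19, Adamts4, Adamts5, Adamts14, Adamtsl3, Mmp15 and Timp3. Summed over a family, Mmp transcripts stood at 134 ± 13.9 FPKM in KO and 73.3 ± 11.8 FPKM in WT (SD, n = 3 each) without overlap. Mmp15 carried most of that difference, and the sums of the other 21 Mmp genes overlapped, at 61.7, 36.9 and 46.4 FPKM in KO and 57.2, 35.4 and 37.8 FPKM in WT. Adam sums were 129 ± 2.78 FPKM in KO and 127 ± 2.44 FPKM in WT, Adamts sums 47.6 ± 1.96 FPKM in KO and 42.6 ± 4.85 FPKM in WT, and Timp sums 60.5 ± 10.9 FPKM in KO and 71.8 ± 4.35 FPKM in WT.

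**Figure D1:**
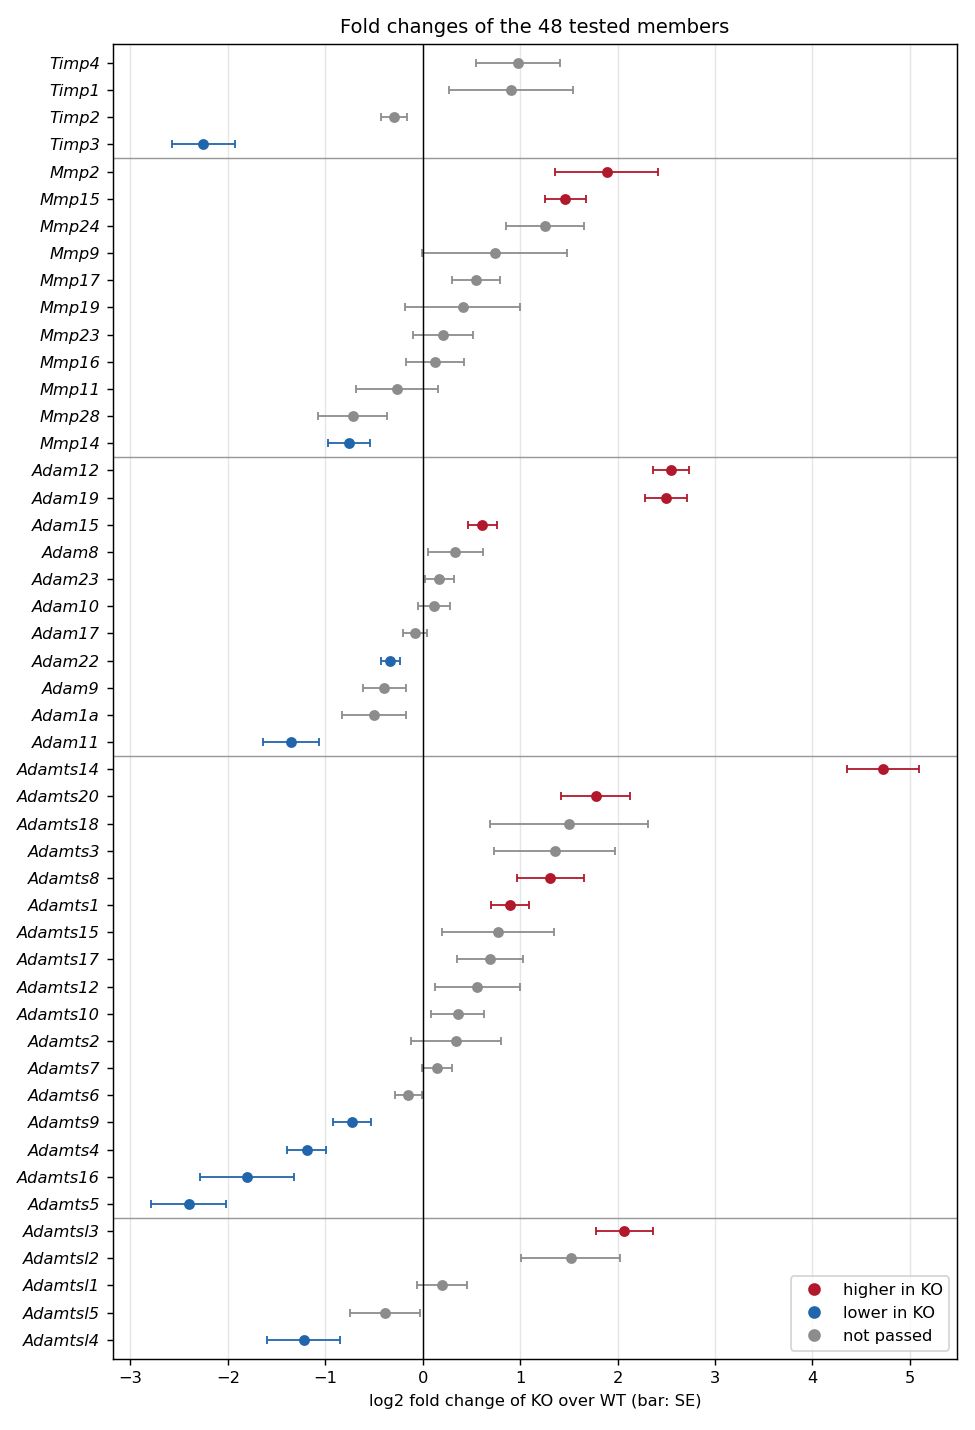
Log2 fold change of KO over WT for the 48 tested members, by family from Timp at the top to Adamtsl at the bottom, with bars of 1 SE. Red points rose and blue points fell in KO at an adjusted p under 0.05, and grey points did not pass; Adamts14 lies farthest right at 4.72 and Adamts5 farthest left at -2.40.

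Of the 4 inhibitor genes, 1 fell in KO spheres and 3 did not pass (25% called, against 29% of all genes). Timp3, the inhibitor that binds to the matrix and blocks ADAM17 and the aggrecan-cutting Adamts proteases as well as Mmp proteases, had 4.59, 1.97 and 2.99 FPKM in KO 1, KO 2 and KO 3, against 11.1, 15.7 and 16.5 FPKM in WT 3, WT 6 and WT 7. Every KO library lay below every WT library, and the level was 4.77-fold lower in KO (log2 fold change -2.25, SE 0.32, adjusted p = 0.0041). With any 1 library left out, the log2 fold change stayed between -2.57 and -2.00. Timp3 lies on chromosome 10 (86300372 to 86349506, mm10) inside Syn3, on the opposite strand, whose mean count was 16.6% of that of Timp3. The use of strand in counting is not given in the sources used here, so reads of overlapping genes cannot be told apart.

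Timp2, which also helps MMP14 to activate pro-MMP2 at the cell surface, was the most abundant inhibitor, with 51.3, 39.5 and 37.0 FPKM in KO and 53.6, 49.7 and 47.0 FPKM in WT. The groups overlapped, and the log2 fold change of -0.29 (SE 0.13) did not pass (adjusted p = 0.138). The Timp2 to Timp3 ratio of FPKM was 11.2, 20.1 and 12.4 in KO spheres and 4.82, 3.16 and 2.85 in WT spheres. Timp1, a secreted inhibitor that is weak against membrane-anchored Mmp proteases, had 11.3, 7.61 and 6.97 FPKM in KO and 1.03, 4.29 and 7.63 FPKM in WT. The spread lay within WT, and the log2 fold change of 0.91 (SE 0.63, adjusted p = 0.303) was 1.60 without WT 7, still without passing. Timp4 had 5.52, 7.99 and 4.67 FPKM in KO and 1.51, 2.49 and 4.75 FPKM in WT. Its log2 fold change of 0.98 (SE 0.43, adjusted p = 0.125) passed only without WT 7 among the libraries left out (1.53, adjusted p = 0.0352) and under limma-voom among the other tests. Timp1 and Timp4 lie inside Syn1 and Syn2 on the opposite strand, whose mean counts were 954% and 239% of theirs, so their values are uncertain.

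**Figure D2:**
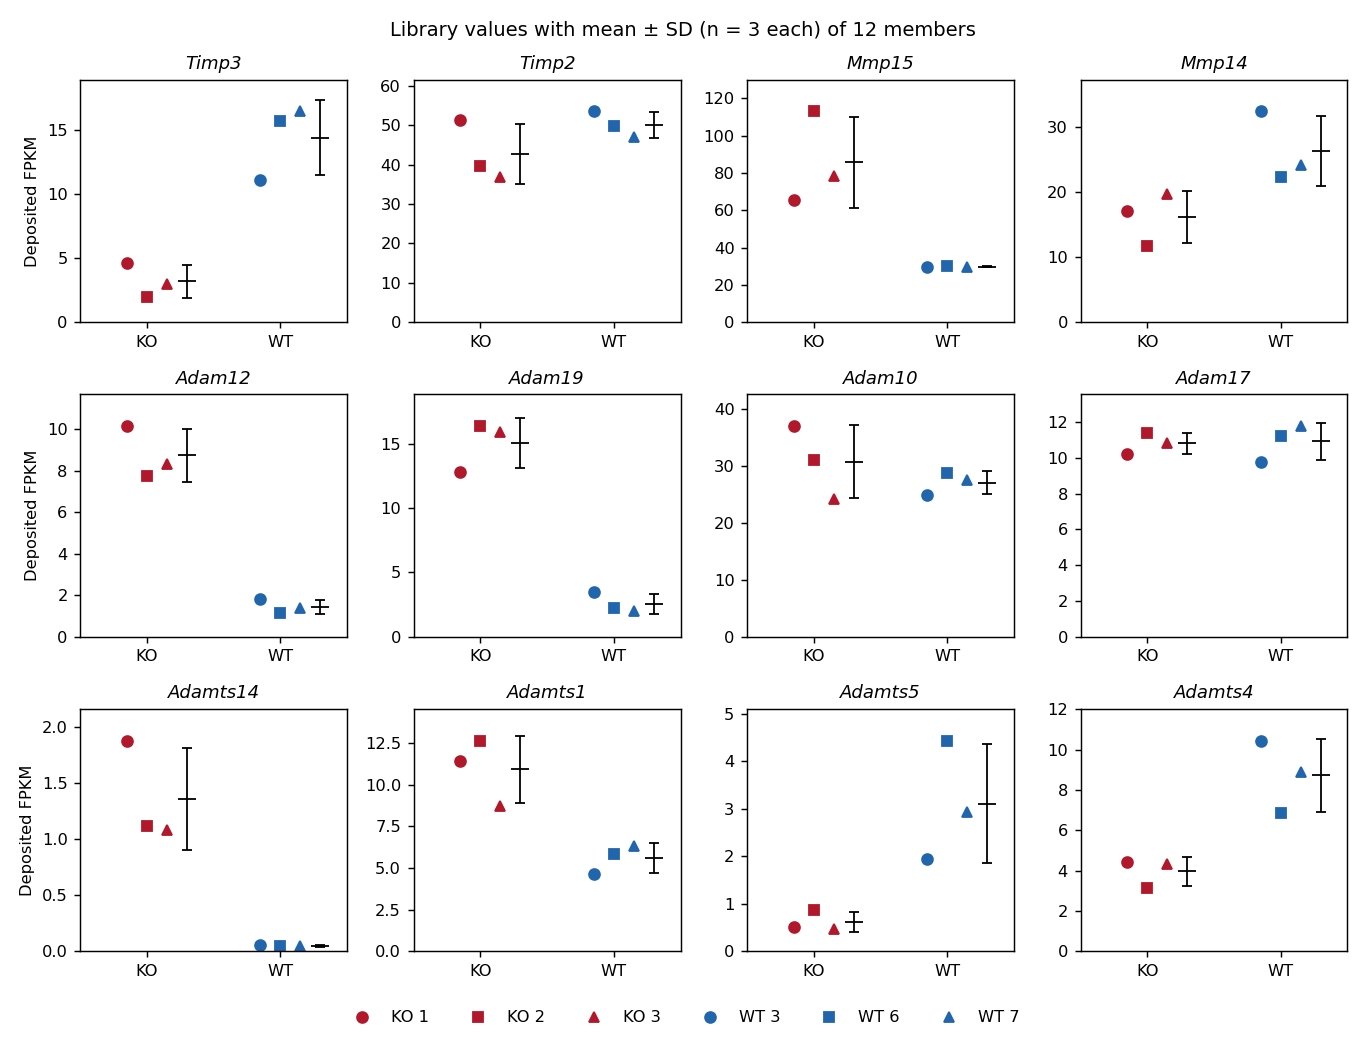
Deposited FPKM of 12 members in each library on linear axes from 0, KO (red) left of WT (blue), with the mean ± SD of 3 libraries as a bar. KO and WT points are apart for Timp3, Mmp15, Mmp14, Adam12, Adam19, Adamts14, Adamts1, Adamts5 and Adamts4, and mixed for Timp2, Adam10 and Adam17.

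Among the Mmp genes, 11 of 22 were tested, 2 rose, 1 fell and 8 did not pass (27.3% called, near the 29% of all genes). The levels were dominated by the membrane-type proteases. Mmp15 (MT2-MMP), a transmembrane protease, had the highest mean level of all 83 members over the 6 libraries, with 65.8, 113 and 78.3 FPKM in KO and 29.7, 30.0 and 29.7 FPKM in WT. In WT its mean of 29.8 FPKM lay below those of Timp2 (50.1), Adam9 (37.7) and Adam11 (30.5 FPKM). WT libraries were nearly alike and each KO library was higher, 2.76-fold in the fit (log2 fold change 1.47, SE 0.21, adjusted p = 0.0041), and between 1.22 and 1.66 on the log2 scale with any 1 library left out. Mmp14 (MT1-MMP), the membrane protease that activates pro-MMP2 and cuts collagen, went the other way, with 17.1, 11.8 and 19.7 FPKM in KO and 32.5, 22.3 and 24.2 FPKM in WT. The groups did not overlap and the log2 fold change was -0.75 (SE 0.21, adjusted p = 0.0381), a call that ended without KO 1, KO 2, WT 3, WT 6 or WT 7 (-0.85 to -0.57, adjusted p 0.0547 to 0.0931). The Mmp15 to Mmp14 ratio of FPKM was 3.84, 9.61 and 3.97 in KO spheres and 0.915, 1.35 and 1.23 in WT spheres, so that Mmp15 exceeded Mmp14 severalfold in each KO library and was about level with it in WT.

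The other tested membrane-anchored Mmp genes did not pass. Mmp24 (MT5-MMP), known from neurons and neural stem cells, had 20.3, 12.2 and 13.4 FPKM in KO and 10.6, 3.97 and 4.03 FPKM in WT. KO libraries were all higher, but WT 3 lay close to them, and the log2 fold change of 1.25 (SE 0.40) gave an adjusted p of 0.0537. Without WT 3 the log2 fold change was 1.84 (adjusted p = 0.00115), and it also passed under 6 of the 9 other settings, with adjusted p 0.00126 to 0.048. BC029722, on the opposite strand, overlaps Mmp24 with 31.6% of its mean count. Mmp17 (MT4-MMP), held by a lipid anchor, had 5.29, 5.82 and 5.33 FPKM in KO and 5.18, 3.23 and 2.47 FPKM in WT. Its log2 fold change was 0.55 (SE 0.25, adjusted p = 0.134), and 0.86 without WT 3 (adjusted p = 0.00702). Mmp16 (MT3-MMP) had 3.46, 2.29 and 1.47 FPKM in KO and 1.88, 2.20 and 2.22 FPKM in WT, with overlapping groups. Mmp11 (stromelysin-3), which furin activates inside the cell, ranged from 1.28 to 3.46 FPKM in KO and from 1.96 to 4.16 FPKM in WT, and overlaps Chchd10 on the opposite strand.

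Mmp2 (gelatinase A), a secreted protease of mesenchymal cells in particular, had 8.62, 2.38 and 2.67 FPKM in KO 1, KO 2 and KO 3, against 1.32, 0.857 and 1.34 FPKM in WT. KO 1 stood far above the others, and the log2 fold change was 1.89 (SE 0.53, adjusted p = 0.0365). The call ended without KO 1, where the log2 fold change was 1.09 (adjusted p = 0.0526), and without WT 6 or WT 7 (1.71 and 2.01). Mmp9 (gelatinase B) was low, at 0.186 to 0.539 FPKM in KO and 0.0681 to 0.482 FPKM in WT. The cluster on chromosome 9 (7272514 to 7699585) holds 9 Mmp genes. They include the collagenases Mmp13 and Mmp8, the stromelysins Mmp3 and Mmp10, the macrophage elastase Mmp12, and Mmp1b. All genes of this cluster were too low to be tested. Their summed counts were 76, 8 and 10 reads in KO and 5, 4 and 6 reads in WT. In the cluster Mmp20 and Mmp7 had no read. Outside it, Mmp21 and Mmp25 were also untested. All 9 untested Mmp genes with any read, inside the cluster or not, had their most reads in KO 1. Mmp12 had 29 of its 44 reads there, but Mmp1b, Mmp8 and Mmp25 had only 1, 2 and 3 reads there.

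Sums of markers of other cells also stood apart in KO 1, though not every marker did. The 10 mural and meningeal markers summed to 706, 45.9 and 89.2 CPM in KO and 36.3, 37.8 and 51.3 CPM in WT. Of their 9 tested genes, Acta2 and Lum passed as higher and 7 did not pass (22.2% called, against 29% of all genes). Lum had 9.62, 0.606 and 0.603 FPKM in KO and 0.209, 0.157 and 0.167 FPKM in WT. Col1a1 did not pass (adjusted p = 0.0701) and had 28.0, 1.75 and 4.49 FPKM in KO and 1.16, 1.57 and 2.12 FPKM in WT. Kcnj8 was at 0 in all WT libraries and in KO 1, with 2 reads in KO 2 and 1 read in KO 3. The 6 microglia markers summed to 9.22, 2.32 and 2.22 CPM in KO and 0.954, 2.36 and 1.33 CPM in WT, and neither of the 2 tested passed. KO 1 was highest in both sums, as in Mmp2 and the chromosome 9 genes. Outside KO 1 the microglia sum did not follow Mmp2. WT 6, at 2.36 CPM, lay above KO 2 and KO 3 but had the lowest Mmp2 (0.857 FPKM). The part of these cells in the values of Mmp2 and the chromosome 9 genes was not tested. In bulk samples, a different number of cells of a type and a different amount of RNA per cell cannot be told apart.

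**Figure D3:**
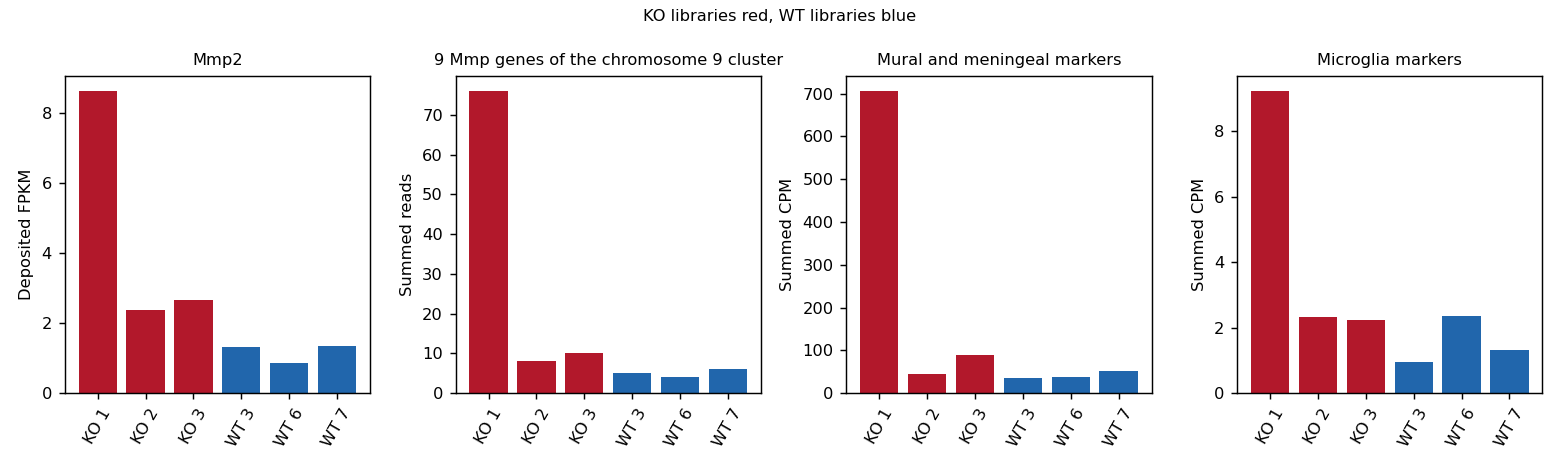
Bars show, for each library (KO red, left; WT blue, right), Mmp2 in FPKM, the summed reads of the 9 Mmp genes on chromosome 9, and the summed CPM of the mural and meningeal and of the microglia markers. KO 1 is the highest bar in all 4 panels, with 8.62 FPKM, 76 reads, 706 CPM and 9.22 CPM.

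Among the Adam genes, 11 of 33 were tested, 3 rose, 2 fell and 6 did not pass (45.5% called, against 29% of all genes). A pair of catalytic Adam proteases from the meltrin group rose most. Adam12 (meltrin alpha), which can release heparin-binding EGF, had 10.2, 7.75 and 8.31 FPKM in KO and 1.80, 1.13 and 1.39 FPKM in WT. The groups were far apart, 5.85-fold in the fit (log2 fold change 2.55, SE 0.19, adjusted p = 0.0008). Adam19 (meltrin beta), which can release neuregulin, had 12.8, 16.4 and 15.9 FPKM in KO and 3.45, 2.23 and 2.03 FPKM in WT, 5.65-fold higher (log2 fold change 2.50, SE 0.21, adjusted p = 0.0010). With any 1 library left out, the log2 fold change stayed between 2.41 and 2.71 for Adam12 and between 2.36 and 2.73 for Adam19. Adam15, which carries an integrin-binding motif, had 13.2, 10.1 and 14.2 FPKM in KO and 8.62, 7.0 and 7.90 FPKM in WT. Its log2 fold change was 0.61 (SE 0.15, adjusted p = 0.0243), and the call ended without KO 1, WT 6 or WT 7 (0.55 to 0.63, adjusted p 0.0612 to 0.0976).

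The main sheddases of the developing brain did not pass in this comparison. Adam10, the principal sheddase of Notch and of the amyloid precursor protein, had 37.0, 31.0 and 24.2 FPKM in KO and 24.8, 28.7 and 27.5 FPKM in WT, with overlapping groups (log2 fold change 0.12, SE 0.16). Adam17, which releases TNF and most ligands of the EGF receptor, had 10.2, 11.4 and 10.8 FPKM in KO and 9.77, 11.2 and 11.8 FPKM in WT (log2 fold change -0.08, SE 0.12); Iah1, on the opposite strand, overlaps it with 34.6% of its mean count. Adam9 had the highest mean of the Adam genes over the 6 libraries, though not in KO alone, where Adam10 averaged 30.7 FPKM and Adam9 29.9 FPKM, and it stood at 22.4, 37.2 and 30.2 FPKM in KO and 35.1, 45.5 and 32.5 FPKM in WT (log2 fold change -0.39, SE 0.22). The ratio of Adam19 to Adam9 was 0.573, 0.441 and 0.526 in KO and 0.0985, 0.0491 and 0.0626 in WT. Adam8, a sheddase of leukocytes and activated glia, was at 1.59 to 2.55 FPKM in KO and 1.13 to 2.02 FPKM in WT (log2 fold change 0.33, SE 0.28).

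Adam11, Adam22 and Adam23 encode neural Adam proteins without catalytic activity, of which ADAM22 and ADAM23 bind the secreted protein LGI1 at synapses. Adam11 had 10.2, 9.83 and 17.2 FPKM in KO and 31.3, 21.9 and 38.3 FPKM in WT, 2.55-fold lower in KO (log2 fold change -1.35, SE 0.29, adjusted p = 0.0151). The groups did not overlap, and the call ended without KO 1 or KO 2 (-1.20 and -1.21, adjusted p = 0.0553 and 0.062). Adam22 had 4.67, 4.29 and 4.11 FPKM in KO and 5.71, 5.26 and 4.85 FPKM in WT, a small fall (log2 fold change -0.33, SE 0.10, adjusted p = 0.0411) that did not pass when any of the 6 libraries was left out (-0.38 to -0.29, adjusted p 0.0703 to 0.142) or under 6 of the 9 other settings. Adam23 did not pass, at 1.62 to 2.03 FPKM in KO and 1.40 to 1.78 FPKM in WT. Of the 22 untested Adam genes, many of them known from the testis, 9 had no read in any library. Of all 83 members, 8 had reads in KO and none in WT, with at most 12 reads summed over KO, and Adam2 and Adam18 had reads in WT (11 and 2 summed) and none in KO. A count of 0 allows up to 3 reads.

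**Figure D4:**
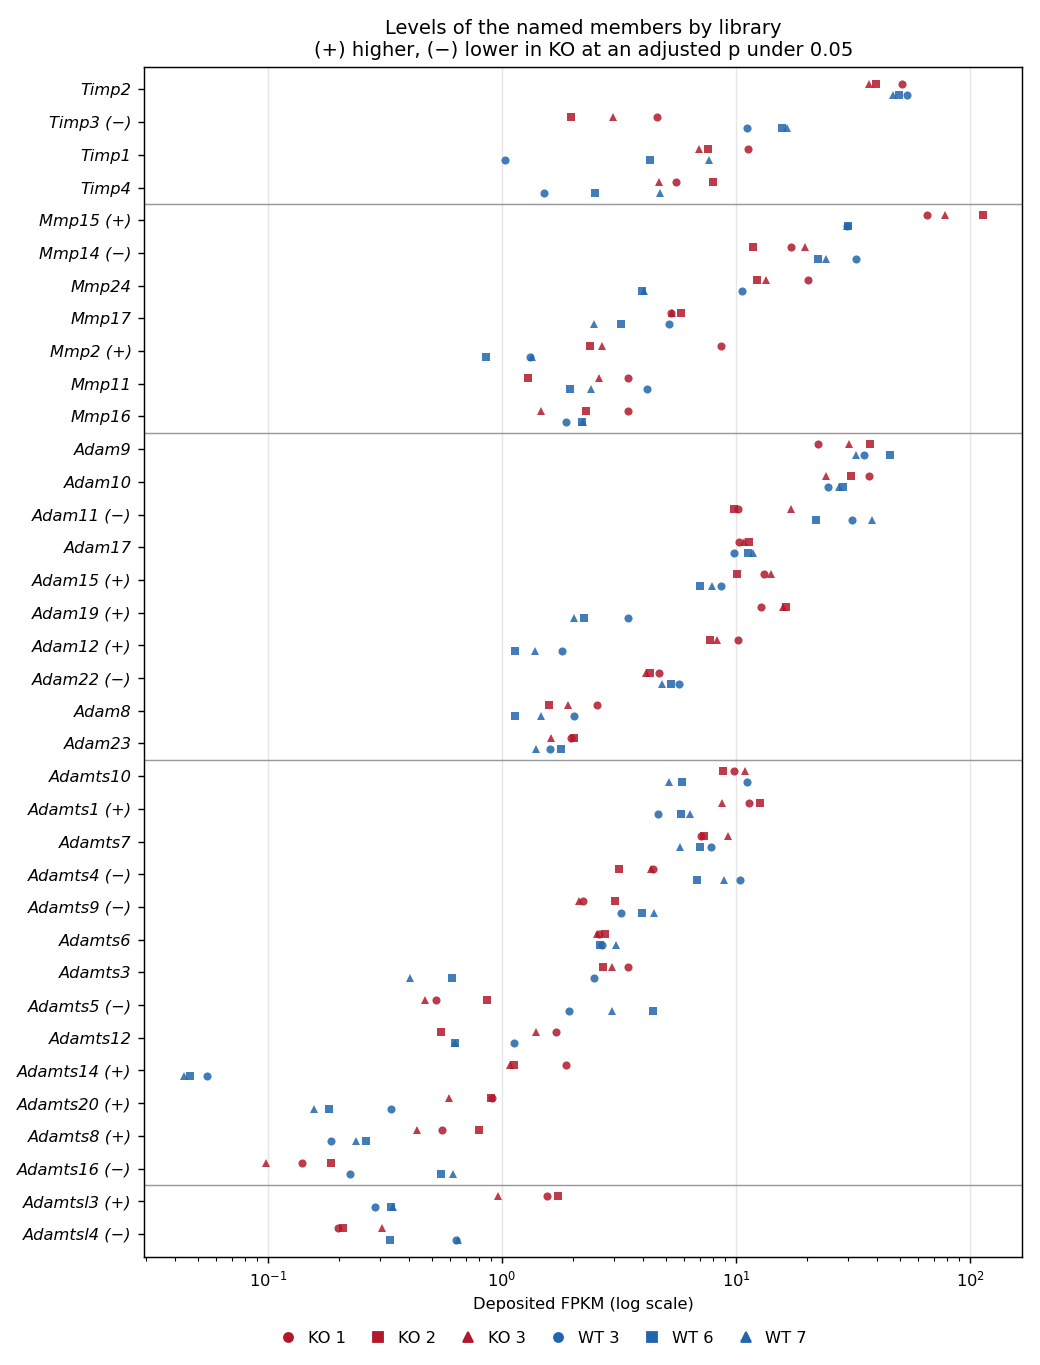
Deposited FPKM on a log axis of the 36 named members, ordered by mean level within families from Timp at the top to Adamtsl at the bottom, with KO libraries in red above WT libraries in blue. A plus or minus after a name marks a member that rose or fell in KO; WT 3 (blue circle) lies nearest to the KO points for Mmp24, Mmp17 and Adamts3, and KO 1 (red circle) lies far right for Mmp2.

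Among the Adamts genes, 17 of 19 were tested, 4 rose, 4 fell and 9 did not pass (47.1% called, against 29% of all genes). Adamts14 rose most of all members. It belongs with Adamts2 and Adamts3 to the proteases that remove the amino-terminal propeptide of procollagens. Adamts14 had 164, 106 and 118 reads in KO, or 1.88, 1.12 and 1.08 FPKM, against 5 reads in each WT library, or 0.0547, 0.0463 and 0.0438 FPKM. The fitted log2 fold change was 4.72 (SE 0.37, adjusted p = 0.0009) and stayed between 4.46 and 4.87 with any 1 library left out, but its size rests on 15 WT reads. Adamts3, which also cuts reelin, had 3.46, 2.69 and 2.94 FPKM in KO and 2.47, 0.612 and 0.402 FPKM in WT. WT 3 lay just under the KO libraries, and the log2 fold change of 1.35 (SE 0.62, adjusted p = 0.136) was 2.49 without WT 3 (adjusted p = 0.000757). DESeq2 and limma-voom also called it (adjusted p = 0.041 and 0.00137). Adamts2 was low and overlapped, at 0.294 to 0.556 FPKM in KO and 0.186 to 0.585 FPKM in WT.

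The 7 Adamts genes of proteases known to cut proteoglycans such as aggrecan, versican and brevican were all tested, and 3 rose, 3 fell and 1 did not pass. Of all tested genes 13.5% rose and 15.5% fell. Adamts1 had 11.4, 12.6 and 8.69 FPKM in KO and 4.63, 5.84 and 6.34 FPKM in WT, 1.86-fold higher (log2 fold change 0.89, SE 0.19, adjusted p = 0.0158). The groups did not overlap, and the call ended without KO 2 or WT 6 (0.77 and 0.93, adjusted p = 0.0574 and 0.0537). Adamts5, the next protein-coding gene beside Adamts1 on chromosome 16 (the pair spans 85793827 to 85901828), fell, with 0.520, 0.865 and 0.468 FPKM in KO and 1.94, 4.43 and 2.94 FPKM in WT. Adamts5 was 5.28-fold lower in KO (log2 fold change -2.40, SE 0.39, adjusted p = 0.0058), and between -2.72 and -2.04 with any 1 library left out. The ratio of Adamts1 to Adamts5 was 21.9, 14.6 and 18.6 in KO spheres and 2.38, 1.32 and 2.16 in WT spheres, so 2 neighbouring protein-coding genes changed in opposite directions.

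Adamts4, the other main aggrecanase, fell 2.28-fold, with 4.41, 3.15 and 4.33 FPKM in KO and 10.4, 6.83 and 8.88 FPKM in WT (log2 fold change -1.19, SE 0.20, adjusted p = 0.0066). Its call held whichever library was left out, but its span overlaps that of another counted gene, so its reads are uncertain. Adamts9 had 2.21, 3.04 and 2.13 FPKM in KO and 3.21, 3.97 and 4.46 FPKM in WT (log2 fold change -0.73, SE 0.20, adjusted p = 0.0341), a call that ended without KO 1, KO 3, WT 6 or WT 7 (-0.70 to -0.61, adjusted p 0.0981 to 0.12). Adamts20, its closest relative by sequence, rose, with 0.902, 0.897 and 0.593 FPKM in KO and 0.335, 0.182 and 0.157 FPKM in WT (log2 fold change 1.78, SE 0.35, adjusted p = 0.0121), and lost its call only without WT 6 (1.66, adjusted p = 0.0558). Adamts8 was low, at 43, 67 and 42 reads in KO and 15, 25 and 24 reads in WT (log2 fold change 1.31, SE 0.34, adjusted p = 0.0298). That call held only without KO 3 among the libraries left out, with adjusted p of 0.0527 to 0.0987 for the other 5 (log2 fold changes 1.04 to 1.43).

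Of the remaining Adamts genes, Adamts16 was the only 1 called. It had 16, 23 and 14 reads in KO and 27, 78 and 93 reads in WT, with WT 3 close to the KO libraries (log2 fold change -1.80, SE 0.48, adjusted p = 0.0312), and its call held only without WT 3 (without the others -2.05 to -1.54, adjusted p 0.0674 to 0.102). Adamts10, which acts on fibrillin microfibrils, had 9.76, 8.75 and 10.9 FPKM in KO and 11.1, 5.87 and 5.19 FPKM in WT. WT 3 was the highest of all 6 libraries, and the log2 fold change of 0.36 (SE 0.27, adjusted p = 0.335) was 0.74 without it (adjusted p = 0.00764). Adamts7, which can cut the cartilage oligomeric matrix protein, had 7.10 to 9.21 FPKM in KO and 5.77 to 7.78 FPKM in WT, and overlaps Tbc1d2b with 58.8% of its mean count. Adamts6 was at 2.55 to 2.75 FPKM in KO and 2.61 to 3.07 FPKM in WT, and Adamts12 at 0.548 to 1.70 FPKM in KO and 0.629 to 1.13 FPKM in WT, and neither passed.

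The 5 Adamtsl genes were all tested and all low, and 1 rose, 1 fell and 3 did not pass (40% called, against 29% of all genes). Adamtsl3 had 1.55, 1.74 and 0.959 FPKM in KO and 0.287, 0.336 and 0.341 FPKM in WT, 4.20-fold higher without overlap (log2 fold change 2.07, SE 0.29, adjusted p = 0.0040). Adamtsl4, whose product binds fibrillin microfibrils, had 14, 16 and 27 reads in KO and 47, 29 and 60 reads in WT (log2 fold change -1.22, SE 0.38, adjusted p = 0.0493). KO 3 and WT 6 lay close together, and the call ended without each of the 6 libraries (-1.47 to -1.05, adjusted p 0.0542 to 0.157).

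Genes that control or feed these proteases moved in both directions. Of 17 tested regulators and partners, 2 rose and 4 fell (35.3%, against 29% of all genes). The tetraspanins that carry ADAM10 to the cell surface differed among themselves. Tspan15 had 1.11, 1.92 and 1.75 FPKM in KO and 5.65, 6.13 and 6.79 FPKM in WT (log2 fold change -2.02, SE 0.23, adjusted p = 0.0024), and Tspan14 also fell (-0.62, SE 0.14, adjusted p = 0.0188). Tspan5 had 21.7, 23.2 and 27.4 FPKM in KO and 14.6, 12.2 and 13.8 FPKM in WT (0.78, SE 0.13, adjusted p = 0.0063). Furin, the convertase that removes the propeptide of many of these proteases, had 4.15, 3.45 and 3.79 FPKM in KO and 5.91, 6.63 and 7.86 FPKM in WT (-0.91, SE 0.15, adjusted p = 0.0065).

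In the plasminogen activator system, which works beside the Mmp proteases, 3 of 8 tested genes rose and 3 fell (75%, against 29% of all genes). The urokinase receptor Plaur had 0.661, 0.776 and 0.455 FPKM in KO and 0.0435, 0.0552 and 0.0695 FPKM in WT (log2 fold change 3.35, SE 0.41, adjusted p = 0.0027). These were 29, 37 and 25 reads in KO and 2, 3 and 4 reads in WT, so the size rests on few WT reads. Urokinase (Plau) also rose (2.40, SE 0.47), with 2.12, 1.02 and 0.825 FPKM in KO and 0.168, 0.244 and 0.288 FPKM in WT. The tissue activator Plat had 19.5, 19.4 and 19.8 FPKM in KO and 29.4, 32.9 and 32.9 FPKM in WT, and fell by 0.76 on the log2 scale (SE 0.11, adjusted p = 0.0037).

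Of 13 tested genes of other extracellular metalloproteases and their enhancers, 2 rose and 3 fell (38.5%, against 29% of all genes). Bmp1, the procollagen C-proteinase, fell (log2 fold change -0.82, SE 0.14), as did the endothelin-converting enzyme Ece1 (-1.25, SE 0.22) and carboxypeptidase E (Cpe; -1.85, SE 0.37). The Bmp1 relative Tll2 rose (3.59, SE 0.74), with 0.624, 0.383 and 0.152 FPKM in KO and 0.0165, 0.0140 and 0.0528 FPKM in WT. These were 36, 24 and 11 reads in KO and 1, 1 and 4 reads in WT, so the size rests on few WT reads. Among 17 tested membrane proteins that are shed, 3 rose and 5 fell (47.1%, against 29% of all genes). The EGF receptor ligand Areg had 1.03, 1.27 and 0.901 FPKM in KO and 0.0468, 0.0396 and 0.0374 FPKM in WT (4.47, SE 0.44), and Hbegf also rose (0.97, SE 0.18), while Tgfa (-1.87, SE 0.28) and the Notch ligand Dll1 (-1.59, SE 0.28) fell. Areg had 21, 28 and 23 reads in KO and 1 read in each WT library, so the size of its change rests on few WT reads. Of 12 tested matrix substrates of Adamts proteases, 3 rose and 1 fell (33.3%, near the 29% of all genes). The proteoglycan brevican (Bcan), a substrate of ADAMTS4 and ADAMTS5, had 125, 187 and 156 FPKM in KO and 454, 500 and 432 FPKM in WT (-1.63, SE 0.19). Reln, cut by ADAMTS3, rose (3.35, SE 0.86), as did the fibrillins Fbn2 (1.76, SE 0.25) and Fbn1 (1.08, SE 0.21).

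Cell type markers moved with the same libraries. All 4 proliferation markers rose, where 13.5% of all tested genes rose and 15.5% fell. Their sum was 1080 to 1422 CPM in KO and 209, 79.2 and 59.1 CPM in WT 3, WT 6 and WT 7. Of the astrocyte markers 5 of 6 fell, with sums of 367 to 667 CPM in KO and 1489, 5680 and 5882 CPM in WT 3, WT 6 and WT 7. Of the oligodendrocyte lineage markers 6 of 8 fell, with sums of 1114 to 2043 CPM in KO and 4566, 3824 and 4102 CPM in WT 3, WT 6 and WT 7. Of 8 progenitor markers 1 rose (Nes), 3 fell (Pax6, Sox2 and Prom1) and 4 did not pass. None of the 6 neuron markers passed, with sums of 2044 to 3108 CPM in KO and 2205, 1491 and 1305 CPM in WT 3, WT 6 and WT 7. Tubb3, Stmn2 and Syt1 were higher in KO without overlap, and the other neuron markers overlapped. KO and WT were free of overlap in 48.6% of all tested genes. WT 3 lay nearest to KO in the astrocyte and proliferation sums, within the KO range in the neuron sum, and farthest from KO in the oligodendrocyte sum. The part of these markers in the changes of the members was not tested. Endothelial markers summed to 2.74 to 4.78 CPM in KO and 4.59 to 6.98 CPM in WT, but the lower KO sum came from Kdr. Of the 2 tested, Kdr fell (log2 fold change -2.07, SE 0.35, adjusted p = 0.0071), with 0.922, 1.03 and 1.37 CPM in KO and 4.60, 6.28 and 3.22 CPM in WT. Pecam1 was higher in KO without overlap but did not pass (0.95, SE 0.35, adjusted p = 0.0824). Tek and Flt1 were too low to be tested, and their groups overlapped. Cdh5 had 6, 3 and 1 reads in KO and Cldn5 had 3, 2 and 0, and both were at 0 in all WT libraries.

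Many members lie side by side. With gaps of at most 200 kb, 35 of the 83 members fell into 11 clusters, and 28 of these 35 were untested. On chromosome 8, Adam24, Adam25, Adam20 and Adam39 together had no read, and in the cluster of Adam18, Adam3, Adam5, Adam32 and Adam9 only Adam9 was tested. Promoter windows matched 48 members by symbol. The 28 tested ones held a median of 23 CpGs (2 to 46), the 20 untested ones a median of 1 (0 to 18), and all RefSeq windows a median of 7. Among the tested members the medians were 23.5 in 6 that rose, 24 in 5 that fell and 22 in 17 that did not pass. Timp4, with 2 CpGs, and Adamtsl3, with 46, were the extremes among tested members.

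**Figure D5:**
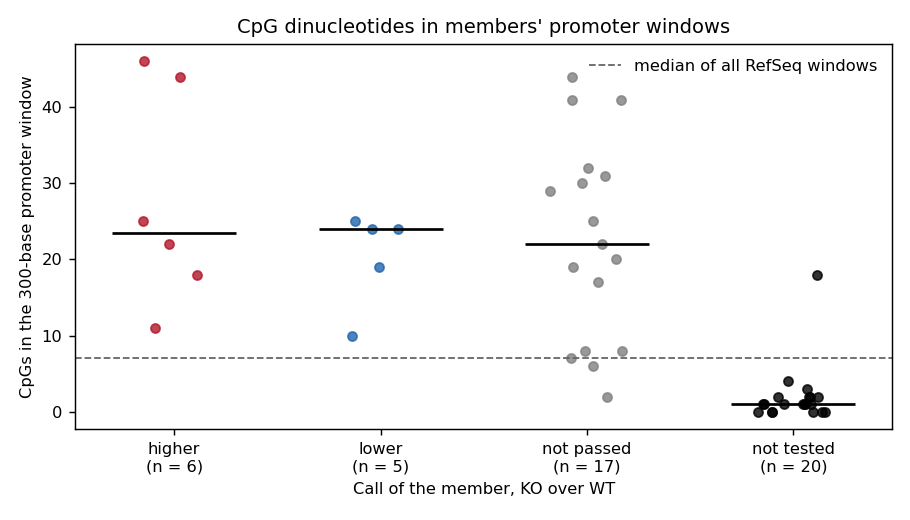
CpG dinucleotides in the 300-base promoter window of each matched member, grouped by its call in KO over WT, with a bar at the group median and a dashed line at the median of all RefSeq windows (7). Members that rose, fell or did not pass have medians of 23.5, 24 and 22, and the members not tested have a median of 1.

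Mmp genes are textbook targets of AP-1 factors, so the motif TGANTCA, which reads the same on both strands, was searched in these windows. N stands for any base, so the motif is wider than the usual AP-1 site, which has C or G there. All counts of matches are for the wider motif. It was found in 1 of 28 tested members (Adam19) and in 10 of 20 untested members, of which 6 are among the 9 Mmp genes on chromosome 9 (66.7%). It stands in 7.81% of all windows, and in 11.5% of those with at most 4 CpGs. The matches of Adam19 and of these Mmp genes are shown with 10 bases on each side and the motif in capitals. That of Mmp20 has A in the middle, and the others have C or G. Their first bases lie 131, 46, 63, 35, 93, 95 and 63 bases before the start in the order given.
Adam19 (chr11:46055843-46055869, plus strand): gtccttcaccTGAGTCAgcgatgctcc
Mmp3 (chr9:7445766-7445792, plus strand): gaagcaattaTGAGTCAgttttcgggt
Mmp10 (chr9:7502269-7502295, plus strand): agcacccatgTGAGTCAtgcttagtga
Mmp13 (chr9:7272469-7272495, plus strand): cccaaagtggTGACTCAtcactatcat
Mmp1b (chr9:7388103-7388129, minus strand): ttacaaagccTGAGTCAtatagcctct
Mmp20 (chr9:7628126-7628152, plus strand): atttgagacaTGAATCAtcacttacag
Mmp7 (chr9:7692017-7692043, plus strand): agtgtgcaaaTGAGTCAcctatttcca
A match is a run of letters and does not show binding. Adam19 rose 5.65-fold in KO, while the 6 Mmp genes were too low to be tested, and Mmp20 and Mmp7 had no read in any library.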

How the data were processed

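Neurosphere RNA of 3 KO and 3 WT libraries was analysed from 1 deposited table. It holds whole-number read counts per gene, which the authors had not normalised, and FPKM values that the authors made from gene length and library total, per the file headers and the values. Libraries were made from 3 µg of RNA, per the labels' protocols. The submitters' processing notes name mm10, DESeq2 1.16.1, featureCounts 1.5.0-p3 and HISAT2 2.0.5, without settings. Each of the 498 FPKM values of the members gave back its count within 0.05 reads.

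All 6 libraries entered 1 edgeR 4.0.16 fit (R 4.3.3) with TMM factors of 0.961 to 1.04, the filterByExpr defaults, no covariate, and a two-sided quasi-likelihood test adjusted by Benjamini-Hochberg over 16606 genes. Each SE was derived as the size of the log2 fold change over the square root of its F statistic. The biological coefficient of variation was 26.5%. Exact permutation of 3 against 3 libraries gives at least p = 0.1 and was not used. The principal components used log2 CPM with a prior count of 2. The floor of 3 reads covers counting error only, while SEs and SDs also carry the spread between libraries.

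Named were members that passed, the 4 Timp genes, members with a mean of at least 1 FPKM, and up to 4 genes of lowest p in each pathway list; other genes were chosen after their values were seen. A gene that this rule takes is not reported here, and counts include it. Members, lists, classes and motif were chosen with earlier results of these data known. Overlapping genes were found from the table's coordinates and reported above 10% of the member's mean count. Promoter sequences are RefSeq's (GRCm38.p6), kept within 1000 bases of the table's start. Alternatives were RLE factors, library totals, no filter, 1 CPM in 3 libraries, DESeq2 1.42.0, limma 3.58.1 (voom with quality weights; log2(FPKM + 1) and log2(FPKM + 0.1) for genes averaging 0.5 FPKM or more), testing against a 1.5-fold change, leaving out each library, and leaving out members that overlap another gene.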

Additional observations from a re-analysis of the deposited data

How the results depend on the processing

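No paired analysis was possible because KO and WT libraries share only the number 3. Members that rose numbered 10, and 9 to 13 under the other settings apart from limma-voom with quality weights (19) and the test against a 1.5-fold change (6). Members that fell numbered 9, and 6 to 9 apart from both FPKM scales (4 each) and the 1.5-fold test (3). Over all genes limma-voom called 8052 and the 1.5-fold test 1522, against 4812. Leaving out 1 library gave 5 to 17 members that rose and 3 to 6 that fell. It gave 2 to 3 risen and 0 to 1 fallen Adam genes, 1 to 7 and 2 to 4 Adamts genes, 1 to 2 and 0 Adamtsl genes, 1 to 5 and 0 to 1 Mmp genes, and 0 to 1 and 1 Timp genes; 17 came without WT 3 and 5 without WT 6. Limma-voom called as higher 8 Adamts, 2 Adamtsl, 5 Mmp and 1 Timp genes, and no filter and DESeq2 2 Adamtsl genes. The 1.5-fold test called as higher 2 Adamts genes and 1 Mmp gene. Of lower calls, 1 Adam gene was left under library totals, no filter, DESeq2 and both FPKM scales and 0 under the 1.5-fold test, 2 Adamts genes under both FPKM scales and the 1.5-fold test, and 0 Mmp genes under library totals, both FPKM scales and the 1.5-fold test. For Adamtsl genes 0 lower calls were left under library totals, no filter, limma-voom, both FPKM scales and the 1.5-fold test. Among the 36 named members, leaving out 1 library turned the sign of 3, none of them called: Adam17 (log2 fold changes -0.17 to 0.0011, positive without KO 1), Mmp11 (-0.56 to 0.074, positive without KO 2 or WT 3) and Mmp16 (-0.18 to 0.39, negative without KO 1). The cause was not tested. With 3 libraries a group, small changes of low genes were not detectable at this depth, and genes under the filter were not compared.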
